A study of Homo sapiens with 48 samples.

Results

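Gene expression was compared between 22Rv1 derivatives whose only introduced Mediator kinase was kinase-dead or active CDK19, grown without inhibitor. 22Rv1 is a human castration-resistant prostate carcinoma line. In both derivatives the endogenous CDK8 and CDK19 genes had been disrupted with CRISPR/Cas9, after which a lentivirus restored either wild-type CDK19 (dKO-19) or its D173A mutant, which lacks kinase activity (dKO-19M). The comparison used 6 of the 48 human libraries in the table, 3 per line. All 6 were total RNA from cells kept in medium with complete fetal bovine serum (FBS) and treated for 72 h with the vehicle, 0.1% DMSO. Members were all expressed genes, 20009 of the 61815 in the table. The table's remaining libraries came from parental cells (Rv1-WT), a luciferase-marked derivative (Rv1-Luc) and cells re-expressing CDK8 (dKO-8) or its D173A form (dKO-8M), with or without the CDK8/19 inhibitor SNX631 at 500 nM, and some of them from charcoal-stripped serum, which were not compared here. Each line came from a separate transduction, so the state of the kinase and any other difference between the 2 cell populations cannot be told apart. The study's methods call the replicates biological. Neither they nor the labels say that replicates were separate cultures, and if they were not, the p-values measure only the spread between these samples.

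CDK8 and CDK19 are paralogous cyclin C-dependent kinases, and a cell's Mediator complex can carry either of them. Together with cyclin C, MED12 and MED13 or their paralogs they form the kinase module, which docks reversibly on the Mediator complex between gene-specific transcription factors and RNA polymerase II. The module acts through phosphorylation and also as a physical part of the complex, so a kinase-dead protein can differ from an active one in the first role while still taking part in the second. The mutated aspartate is the metal-binding residue of the conserved kinase motif DMG. The reference coding sequence around it is shown because this single codon is the designed difference between the lines, with the codon in capitals. These are GENCODE 29 reference transcripts on GRCh38, codons 163 to 183, and were not read from the libraries. In CDK19 the codon lies at chr6:110632157-110632159 on the minus strand, in exon 6 of 13, and in CDK8 at chr13:26385213-26385215 on the plus strand, in exon 6 of 13. The 63-base stretches are identical at 54 positions. The change D173A is numbered from the first methionine.
CDK19: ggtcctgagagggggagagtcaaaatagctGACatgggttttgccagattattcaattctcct
CDK8: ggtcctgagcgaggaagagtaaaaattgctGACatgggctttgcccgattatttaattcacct

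The vehicle libraries held between 21080763 and 24785333 counts in dKO-19 and between 26456341 and 28949382 counts in dKO-19M. Levels are given in CPM, counts scaled to a common library total with edgeR's trimmed-mean factors. Replicate 1 of dKO-19M stood apart from the other dKO-19M vehicle replicates. Its chi-square per degree of freedom was 17.7 against replicate 2 and 17.1 against replicate 3, whereas replicates 2 and 3 gave 1.45, the dKO-19 vehicle replicates 1.71 to 2.82, and the next highest of all replicate pairs 9.71. Its deviation followed transcript length, with a median log2 difference to replicates 2 and 3 of 0.20 in the fifth of genes with the shortest exonic length and -0.19 in the fifth with the longest. Results are therefore also given without it. All 10 luminal prostate markers, among them KRT8 and KRT18, were detected, with summed levels of 3540 to 3660 CPM in dKO-19 and 4520 to 4870 CPM in dKO-19M. Markers of other cells summed to at most 0.858 CPM (4 basal genes), 0.323 CPM (6 plasma or B cell genes, 4 of them at 0 in all 6 libraries), 4.61 CPM (5 fibroblast genes), 0.565 CPM (3 endothelial genes) and 3.22 CPM (4 leukocyte genes). The leukocyte sum was 2.78 to 3.22 CPM in dKO-19 and 1.17 to 1.66 CPM in dKO-19M. Most of that sum was CSF1R, with means of 2.73 CPM in dKO-19 and 1.05 CPM in dKO-19M. PTPRC had at most 5 counts per library, CD3E had 0, and CD14 averaged 0.174 CPM in dKO-19 and 0.334 CPM in dKO-19M. The part of the leukocyte sum in the results was not tested. In such bulk RNA a shift in the share of cells in a given state cannot be told apart from a change in RNA per cell.

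Transcripts of the kinase module came first, since they bear on the labels. CDK19 measured 507, 519 and 505 CPM in dKO-19 and 298, 354 and 344 CPM in dKO-19M, far above the 103 to 149 CPM group means of the FBS vehicle lines that received no CDK19 construct. Both lines thus carried extra CDK19 transcript, and all 3 dKO-19M libraries lay below all 3 dKO-19 libraries. The log2 fold change of dKO-19M over dKO-19 was -0.62 (SE 0.041, edgeR adjusted p = 2.01e-19). Leaving out replicate 1 of dKO-19M gave -0.55, under the 1.5-fold limit used for calls. The amount of CDK19 transcript, and not only its kinase activity, therefore differed between the lines. Counts per gene do not separate the construct from endogenous transcripts, nor the mutant from the wild-type codon. CDK8 transcript was 26.1 to 28.9 CPM in the 6 libraries (log2 fold change -0.03), close to the 26.8 CPM of Rv1-WT, so the disrupted gene was still transcribed. CCNC, which encodes cyclin C, differed by -0.20, MED13L by -0.33, MED12L by -0.43, MED13 by -0.10 and MED12 by -0.02, and none of these was called. Without replicate 1 of dKO-19M, MED13 differed by 0.05 and MED12 by 0.09, so their sign turned with that library. None of the 26 core Mediator genes was called by edgeR or DESeq2, and at an unadjusted p under 0.05 4 were higher and 3 lower. Of all 20009 genes tested, 8230 reached that unadjusted p by edgeR.

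A gene was called where the Benjamini-Hochberg adjusted p was under 0.01 and the change exceeded 1.5-fold, which is 0.585 on the log2 scale. By that rule 1520 of 20009 genes (7.6%) differed between kinase-dead and active CDK19 under vehicle. Of these, 745 (3.72%) were higher and 775 (3.87%) lower in dKO-19M. Among the 1520, 823 differed by more than 2-fold, 246 by more than 4-fold and 90 by more than 8-fold, and the 246 comprised 128 higher and 118 lower genes. The 3 dKO-19M and 3 dKO-19 values did not overlap for 1503 of the 1520, beside 39.4% of all genes tested. Without replicate 1 of dKO-19M, 1460 genes (7.3%) were called, 731 higher and 729 lower. Of the 1520, 1318 kept their call and direction, 202 lost it and 142 other genes gained one. A further limit is that 317 of the 1520 averaged under 1 CPM, and 288 had fractional counts in at least 25% of libraries, so their reads may be shared with other genes. Of the called genes named below, the latter holds for KLK4, PLPP1, NDRG1, HOXB13, ID1, PFKP, HLA-B, AXIN2, RNF43 and HOXB4. The shares of all genes called (3.72% higher, 3.87% lower, 7.6% in all) are the background for every count of called list members below. For counts at an unadjusted p under 0.05 by edgeR, the background is 8230 of 20009 genes in either direction.

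The largest falls in dKO-19M included membrane proteins, secreted ligands and parts of the vesicle release machinery. ABCG2, a drug efflux pump, measured 23.2, 28.2 and 28.7 CPM in dKO-19 and 0.779, 0.671 and 0.856 CPM in dKO-19M (log2 fold change -5.10, SE 0.303). PSCA, the glycolipid-anchored prostate stem cell antigen, measured 218, 203 and 211 CPM against 10.9, 10.1 and 9.86 CPM (-4.35, SE 0.149). SEMA4A, a transmembrane semaphorin, measured 24.1, 23.3 and 23 CPM against 1.11, 1.22 and 1.34 CPM (-4.25, SE 0.106). For each of these 3 genes the libraries of a line lay close together and the lines far apart. VEGFC, a growth factor of lymphatic vessels, fell by 3.61 on the log2 scale, and ACKR3, a scavenging receptor for the chemokine CXCL12, by 2.99. HBEGF, a ligand of the EGF receptor, fell by 2.42 and GLI3, a transcription factor of the Hedgehog pathway, by 2.69. STXBP6 (-2.90) and CPLX2 (-2.39) encode regulators of SNARE-dependent exocytosis, and CBLN2 (-2.41) encodes a secreted synapse organizer. CPLX2 was also one of the 5 falls with the lowest p, together with SEMA4A, the neuropeptide precursor gene VGF, VDAC2 and NKILA. VGF measured 163, 146 and 150 CPM against 34.6, 29 and 32 CPM. VDAC2, a channel of the outer mitochondrial membrane, measured 465, 450 and 439 CPM against 195, 173 and 177 CPM.

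The largest rises were led by SERPINE2, which encodes the secreted protease inhibitor nexin-1. It measured 3.02, 3.03 and 4.23 CPM in dKO-19 and 46.7, 45.6 and 44.2 CPM in dKO-19M (log2 fold change 3.72, SE 0.116). CACNA1H, a T-type calcium channel subunit, measured 4.33, 5.96 and 4.41 CPM against 39.8, 47 and 47.1 CPM (3.20, SE 0.105). VIL1, the actin-bundling protein villin of absorptive epithelia, measured 6.12, 7.24 and 6.02 CPM against 41.8, 42.9 and 45.3 CPM (2.75, SE 0.0904). In all 3 genes the lines were separated by a wide gap. CYP2C8, a drug-metabolizing cytochrome P450, rose by 3.20, the transcription factor gene PAX1 by 2.65 and MYOF, which encodes a membrane repair protein, by 2.39. APOD, an androgen-responsive lipocalin, rose by 2.15, GLYATL1 by 2.15 and FAM110B by 2.12. The sulfatase gene ARSJ, with 33.5, 30 and 30.8 CPM against 118, 137 and 135 CPM, was also among the 5 rises with the lowest p. All 20 of the largest changes kept their call without replicate 1 of dKO-19M, which was a condition of the choice.

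**Figure D1:**
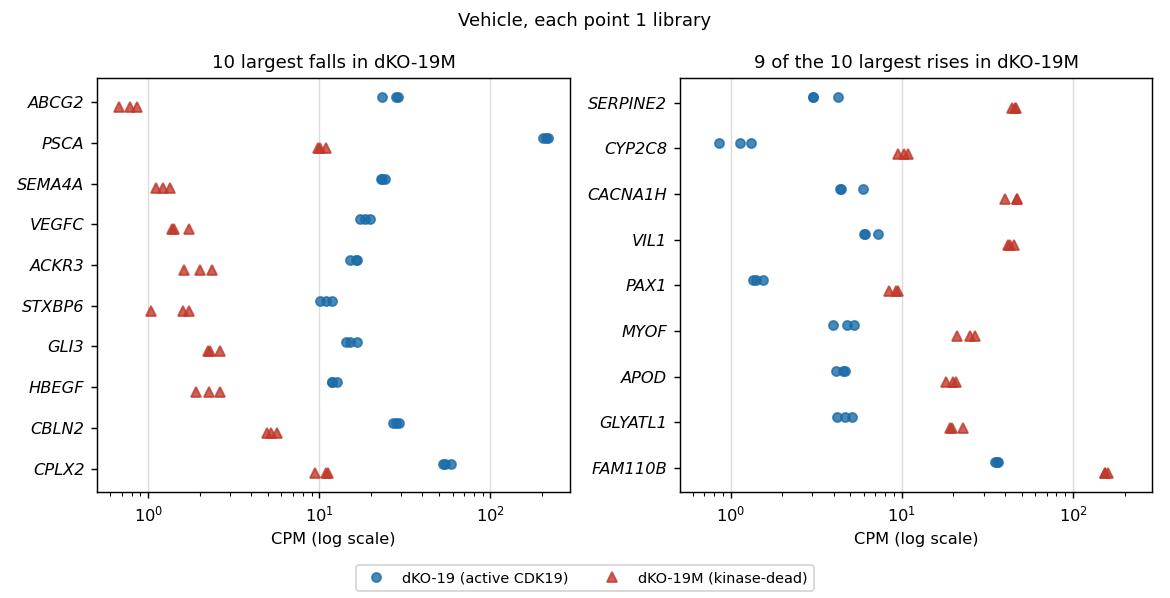
Levels in CPM (log axis) of the 10 genes with the largest falls (left) and 9 of the 10 with the largest rises (right) in dKO-19M under vehicle. Each point is 1 library, with dKO-19 as blue circles and dKO-19M as red triangles, and in each gene drawn the 3 dKO-19M points lie wholly to one side of the 3 dKO-19 points, from 0.671 to 0.856 against 23.2 to 28.7 CPM in ABCG2 and from 44.2 to 46.7 against 3.02 to 4.23 CPM in SERPINE2.

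Genes of the androgen response did not move together. Of 32 tested, 9 were lower (beside 3.87% of all genes), 2 were higher (beside 3.72%) and 21 were not called, with a median log2 fold change of -0.21 beside 0.0046 over all genes. The lower members included 4 kallikrein genes, which encode secreted serine proteases of the prostate. KLK3 (prostate-specific antigen) measured 5.04, 6.06 and 6.5 CPM in dKO-19 and 0.557, 0.553 and 0.409 CPM in dKO-19M (-3.52, SE 0.22). KLK2 fell from 5.98, 4.57 and 6.64 CPM to 0.668, 0.513 and 0.521 CPM (-3.33, SE 0.316), and KLK4 from 27.2, 26.3 and 27.7 CPM to 3.04, 2.64 and 3.05 CPM (-3.21, SE 0.111). KLK4 had fractional counts in 47.9% of libraries, so some of its reads may be shared. KLK15 fell by 1.49. PLPP1, a lipid phosphatase (-1.60), the metalloreductase STEAP2 (-1.29), the stress-responsive gene NDRG1 (-1.07), FOLH1, which encodes prostate-specific membrane antigen (-0.95), and ABCC4, an efflux transporter (-0.88), were the other lower members. The higher members included TMPRSS2, a transmembrane serine protease, which measured 5.61, 4.98 and 6.02 CPM in dKO-19 and 15.5, 15.6 and 15.5 CPM in dKO-19M (1.48, SE 0.0891). Canonical androgen targets were thus called in opposite directions. FOLH1, ABCC4, KLK2, KLK3 and KLK15 were named after their values were seen.

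The kallikrein genes lie side by side on chromosome 19, from 50819148 to 51084245 of GRCh38, and KLK1 at the edge of the cluster was examined after its neighbours' values were seen. KLK1 measured 16.2, 17 and 15.5 CPM in dKO-19 and 9.87, 8.96 and 9.15 CPM in dKO-19M (-0.80, SE 0.0982). Thus 5 of 9 tested kallikreins were lower and 0 were higher by edgeR, as by DESeq2 and at an unadjusted p under 0.05, and the 5 are the adjacent genes KLK1, KLK15, KLK3, KLK2 and KLK4. The 4 tested members beyond them, KLK10, KLK11, KLK13 and KLK14, were at or under 0.388 CPM in both lines and were not called. The RefSeq promoters of KLK3 and KLK2 (GRCh38.p14, 250 bases before to 50 bases after the start) are shown because these are classical androgen-responsive promoters of 2 genes that fell alike. Capitals mark the match to GAACANNNAGTGCT, written as the element of the KLK3 promoter is known, searched on both strands. It lies 169 bases before the KLK3 start and 175 bases before the KLK2 start, and 15 of 35116 promoters of that length (0.0427%) hold it. Because the letters were written from the KLK3 element, the KLK3 match was fixed in advance. Nothing is read from that share about the fall of these genes. The promoters listed for KLK4 and KLK15 hold no match. KLK3 is at chr19:50854665-50854964 and KLK2 at chr19:50873189-50873488, both on the plus strand.
KLK3: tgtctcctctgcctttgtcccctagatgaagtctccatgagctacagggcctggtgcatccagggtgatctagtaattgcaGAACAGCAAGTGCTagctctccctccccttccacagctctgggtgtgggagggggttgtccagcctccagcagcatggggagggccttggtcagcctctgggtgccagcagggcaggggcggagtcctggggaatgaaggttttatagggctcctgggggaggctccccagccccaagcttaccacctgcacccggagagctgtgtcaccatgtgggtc
KLK2: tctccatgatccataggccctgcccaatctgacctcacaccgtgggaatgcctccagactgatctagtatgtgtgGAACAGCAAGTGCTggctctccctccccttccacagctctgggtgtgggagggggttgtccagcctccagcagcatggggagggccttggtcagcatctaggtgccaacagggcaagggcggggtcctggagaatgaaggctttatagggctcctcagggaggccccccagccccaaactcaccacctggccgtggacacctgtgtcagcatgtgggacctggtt

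Luminal transcription factors included more rises than falls, with 3 of 20 called higher and 0 lower by edgeR and by DESeq2. At an unadjusted p under 0.05 there were 11 higher and 6 lower. The called genes included HOXB13, a homeobox factor of the prostate, and EHF, an epithelial ETS factor. HOXB13 measured 177, 179 and 173 CPM in dKO-19 and 288, 265 and 259 CPM in dKO-19M (0.62), and without replicate 1 it was 0.57 and no longer called. EHF averaged 114 CPM in the active line, and dKO-19M replicates measured 151, 190 and 183 CPM (0.61). Both lie just past the 1.5-fold limit.

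Surface antigens studied as targets in prostate cancer moved in both directions, with 9 of 16 called beside 7.6% of all genes and a median of -0.14. The 5 lower antigens were PSCA, STEAP2, STEAP1 (-1.05), FOLH1 and NECTIN4 (-1.94, 3.21 to 0.834 CPM), of which NECTIN4 was named after its values were seen. STEAP1 measured 63.2, 62.9 and 65.7 CPM in dKO-19 and 33.1, 29.3 and 29.9 CPM in dKO-19M. The 4 higher ones were CD44, an adhesion receptor for hyaluronan (1.34), CD24, a mucin-like adhesion molecule (0.69), ENPP1 (0.60) and CEACAM5. CEACAM5 had at most 1 count per library in dKO-19, and against a floor of 3 counts per library it was at least 3.3-fold higher.

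Of 29 neuroendocrine and secretory vesicle genes, 7 were called lower, beside 3.87% of all genes, and 1 higher, and 21 were not called, with a median of -0.31. SYT4, a synaptotagmin of secretory vesicles, measured 30.6, 35.1 and 34.3 CPM in dKO-19 and 9.57, 11.1 and 11.5 CPM in dKO-19M (-1.64, SE 0.069). SYP, the vesicle protein synaptophysin, measured 71.9, 66.1 and 75.2 CPM against 46.1, 38.2 and 36.8 CPM (-0.82), and CHGB, the granule protein chromogranin B, 9.38, 10.8 and 9.39 CPM against 3.9, 3.95 and 3.94 CPM (-1.32). None of these ranges overlapped. SCG3, SCGN, SNAP25 and RAB3A, named after their values were seen, were the other lower members, with log2 fold changes of -0.72, -2.29, -0.69 and -0.67. RIMS3, a presynaptic scaffold protein, was the exception, at 62, 64.1 and 60.7 CPM against 105, 117 and 115 CPM (0.85).

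Growth factor systems held genes called in both directions, and the counts of each list stand beside 7.6% of all genes called. In the EGF family, 3 of 14 were lower and 0 higher by edgeR and by DESeq2 (8 and 1 at an unadjusted p under 0.05), namely HBEGF, the ligand NRG3 (-2.01) and the receptor EGFR, which measured 34.3, 32.8 and 32.5 CPM in dKO-19 and 15.4, 17.7 and 17 CPM in dKO-19M (-0.99, SE 0.0636). Of 29 AP-1 and other immediate-early genes, 6 were lower, among them JUN (-0.81), FOSL2 (-0.69) and the phosphatase DUSP4 (-0.93), and 3 were higher, led by KLF4 (1.61). Ligand and receptor genes of the FGF, VEGF and PDGF families gave 4 higher and 3 lower of 24 by edgeR and 2 higher and 3 lower by DESeq2, with FGF13 (0.81) and the coreceptor NRP1 (0.74) higher and VEGFC, FGFR3 (-0.70) and FGF12 (-1.34) lower. KIT was also higher (1.19), but not called without replicate 1, and likewise FGF1, named after its values were seen. SMAD pathway genes gave 5 higher and 4 lower of 32. The BMP antagonist NOG rose from 0.236, 0.36 and 0.306 CPM to 2.86, 3.16 and 3.09 CPM (3.32), whereas the BMP target genes ID1 and ID2 fell by 1.30 and 1.15. INHBA, which encodes the activin A subunit, had at most 2 counts per library in dKO-19M and was at least 18.9-fold lower, and BMP2, named after its values were seen, was at least 4.79-fold higher. The Wnt list gave 5 higher and 3 lower of 34, and the factors LEF1 (0.72) and TCF7L1 (1.51) rose whereas the feedback inhibitor AXIN2 fell (-0.59, -0.55 and not called without replicate 1).

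Antigen presentation genes of MHC class I were higher in 3 of 14 and lower in 0 by edgeR and by DESeq2 (7 and 0 at an unadjusted p under 0.05), with a median of 0.24. The peptide transporter TAP1 measured 21.6, 19.9 and 20.6 CPM in dKO-19 and 38.9, 37.2 and 35.7 CPM in dKO-19M (0.85, SE 0.0684), and the immunoproteasome gene PSMB8 rose by 1.45. HLA-B rose by 0.63, had fractional counts in 45.8% of libraries and was not called without replicate 1. Beside 7.6% of all genes called, hypoxia and glycolysis genes gave 3 lower (ALDOC, BNIP3 and NDRG1) and 1 higher (PFKP) of 33. Their median was -0.28, with 28 of the 33 below 0, beside 48.8% of all genes tested. Of 24 sterol synthesis genes, 2 were lower and 1 higher, and nothing is read from either count about the list. HMGCS1, which encodes an enzyme of the mevalonate pathway, fell by 1.03, and FDFT1, which encodes squalene synthase, by 0.75. The cell-cycle inhibitor gene CDKN1A fell from 316, 288 and 300 CPM to 163, 157 and 146 CPM (-0.96), against 2 higher and 1 lower of 24 p53 targets. Liver-type genes gave 4 higher and 2 lower of 16, and among the higher AMBP, which encodes a plasma protein precursor, averaged 2.85 CPM in dKO-19 and 5.61 CPM in dKO-19M (0.98, SE 0.175).

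Several housekeeping programs held no gene called by edgeR or DESeq2. Their counts at an unadjusted p under 0.05 by edgeR stand beside 8230 of all 20009 genes, so nothing is read from them about the lists. At an unadjusted p under 0.05, 6 of 30 MYC targets were higher and 9 lower, 5 of 28 cell division genes higher and 12 lower, 1 of 20 endoplasmic reticulum chaperones higher and 9 lower, and 3 of 20 aminoacyl-tRNA synthetases higher and 11 lower. The same counts were 23 and 4 for 60 ribosomal protein genes, 9 and 16 for 43 respiratory chain genes and 2 and 2 for 9 genes of the aryl hydrocarbon receptor pathway. Of 38 ATF4 stress response genes, 1 was higher (STC2, 0.61) and 1 lower (DDIT4, -0.68). Between the same lines under SNX631, 7 of the 38 were higher and 0 lower, with a median of 0.33, beside 7.18% of all genes called. The difference of the line effect, vehicle minus SNX631, was called negative for 12 of the 38 and positive for 0, beside 2.07% of all genes. Ribosomal protein genes had a median of 0.07 with all libraries and -0.04 without replicate 1 of dKO-19M, in which they lay 0.32 above replicates 2 and 3, so the sign of their median turned with that library. The remaining lists held between 1 and 4 called genes each, and counts of 4 were reached by 32 interferon response genes (1 higher, 3 lower), 18 NF-kappaB pathway genes (1 higher, 3 lower) and 23 mesenchymal genes (2 higher, 2 lower).

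**Figure D2:**
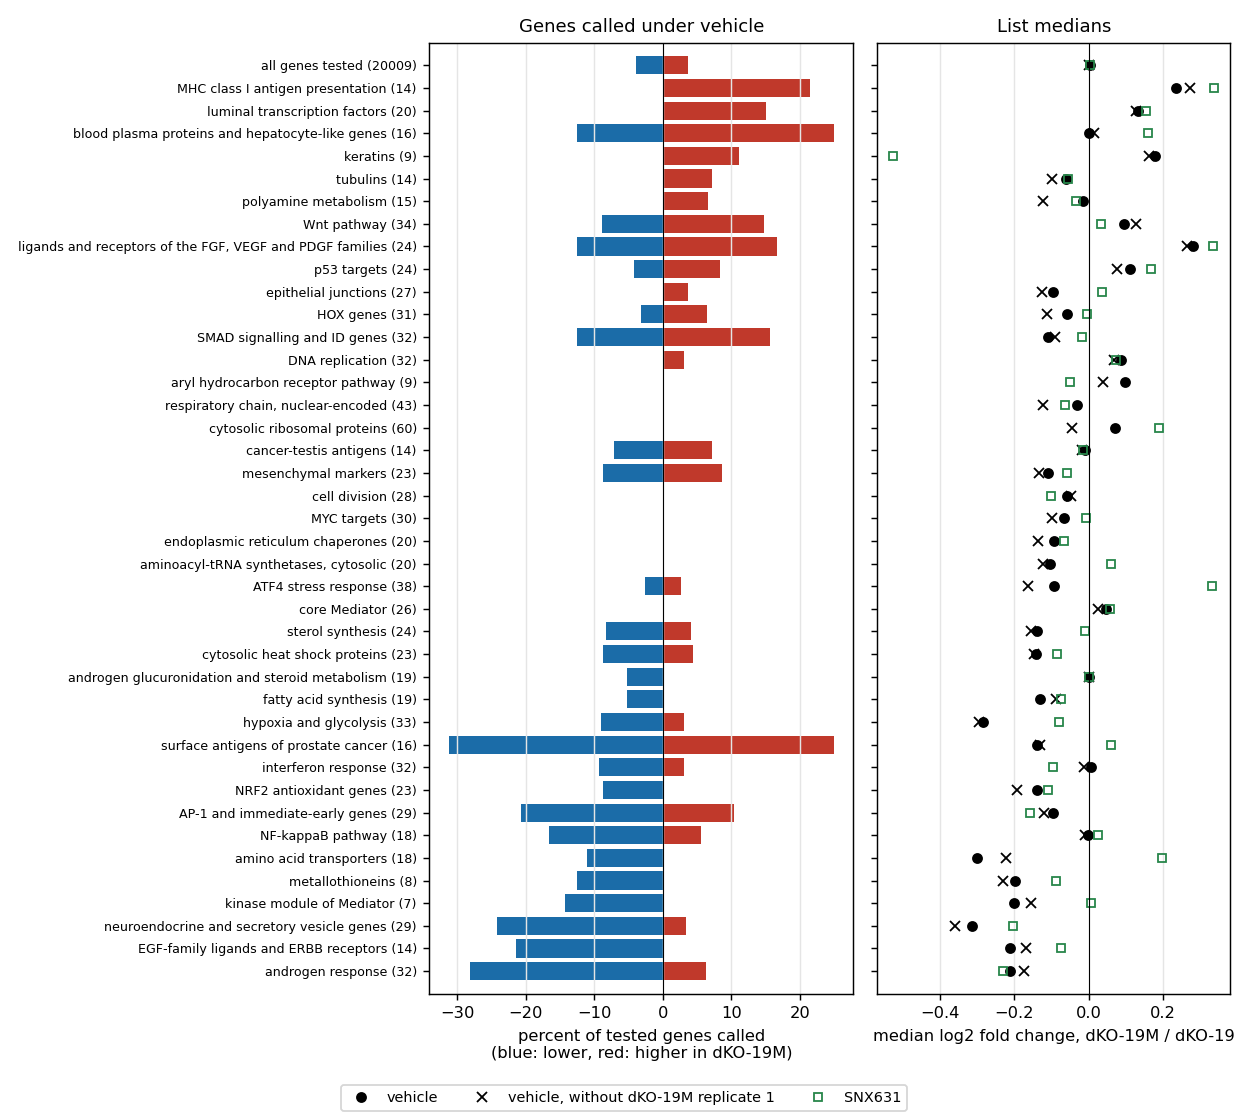
Gene lists, with the number of tested genes in brackets. Left, percent of tested genes called lower (blue, drawn to the left) or higher (red, to the right) in dKO-19M under vehicle. Right, median log2 fold change under vehicle (filled circles), under vehicle without dKO-19M replicate 1 (crosses) and under SNX631 (open squares), with all 20009 genes in the top row at 0.0046 and the androgen response in the bottom row at -0.21.

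The same lines were also profiled with SNX631, which inhibits both kinases, in 6 libraries that share none with the vehicle comparison. There, 1437 of 20009 genes (7.18%) were called between dKO-19M and dKO-19. In the same direction 799 genes were called in both, 347 higher and 452 lower, which is 52.6% of the vehicle calls and 55.6% of the SNX631 calls, and 16 were called in opposite directions. Of the 1520 vehicle calls, 93.3% had the same sign under SNX631. Across 20009 genes the log2 fold changes had r = 0.52, as a description over genes that are not independent replicates. All 20 of the largest changes under vehicle were also called in the same direction with the inhibitor present. ABCG2 differed by -4.91 under SNX631, SEMA4A by -3.86, SERPINE2 by 4.01 and CACNA1H by 2.87. KLK4 differed by -3.51, KLK2 by -2.58 and KLK3 by -1.77.

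**Figure D3:**
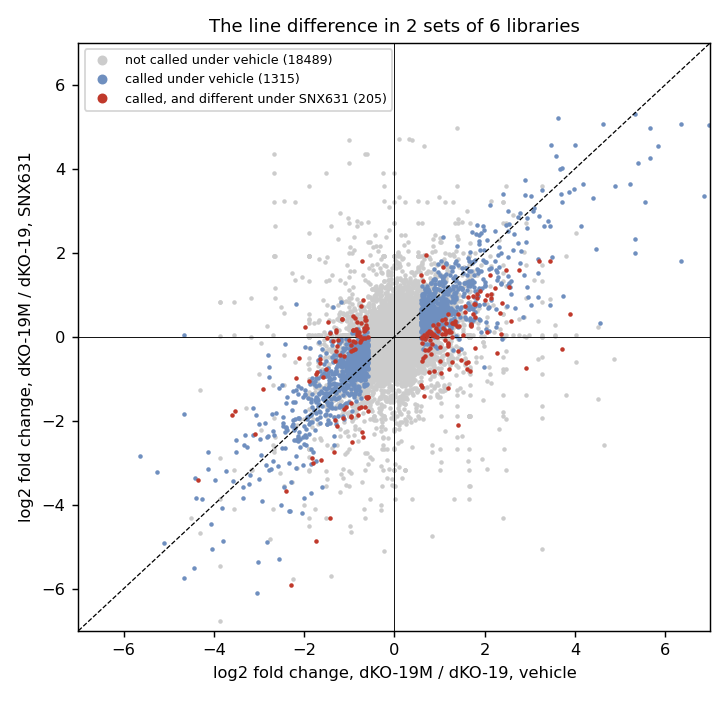
Log2 fold change of dKO-19M over dKO-19 under vehicle (horizontal) and under SNX631 (vertical), 1 point per gene, with the line of equality dashed and 3 genes outside the axes. Grey points are the 18489 genes not called under vehicle and blue and red points the 1520 called ones, of which the 205 in red also differed between vehicle and SNX631. Most blue points lie in the lower left and upper right quadrants, and many red points near 0 on the vertical axis.

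The difference between the line effects under vehicle and under SNX631 was tested as an interaction and was called for 415 of 20009 genes (2.07%). It was called for 205 of the 1520 vehicle calls. Among them, 108 higher genes were less positive under SNX631, 65 lower genes were less negative, and 32 had the larger change under SNX631. The 1520 were chosen on libraries that the interaction also uses, so nothing is read from that split. For 735 of the 1520 (323 higher, 412 lower) both line effects were called in the same direction and their difference was not, and 580 were neither called under SNX631 nor different.

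NKILA and TMPRSS2 had the lowest p for that difference among the vehicle calls. NKILA, a long noncoding RNA that binds the NF-kappaB inhibitor complex, measured 56.5, 52 and 52.8 CPM in dKO-19 with vehicle, 13.7, 14.4 and 12.7 CPM in dKO-19M with vehicle, 11.2, 12.2 and 14.4 CPM in dKO-19 with SNX631 and 14.2, 14.6 and 15.5 CPM in dKO-19M with SNX631. Of these 4 groups, only active CDK19 without inhibitor stood high. The line effect was -1.98 with vehicle and 0.23 with SNX631 (difference -2.22, edgeR adjusted p = 4.47e-22). NKILA lies antisense to PMEPA1, which was 1040 to 1100 CPM in dKO-19 and 980 to 1010 CPM in dKO-19M with vehicle and was not called. With SNX631, PMEPA1 was 730 to 735 CPM in dKO-19 and 970 to 1040 CPM in dKO-19M, so it too was lower in dKO-19 with the inhibitor. Whether the counting used strand is not given in the sources used here, and what PMEPA1 reads add to the NKILA counts was not tested. TMPRSS2 had the mirror pattern, with 4.98 to 6.02 CPM in dKO-19 with vehicle and 15.5 to 24.8 CPM in the other 3 groups (difference 2.03, edgeR adjusted p = 5.06e-21).

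SFN, HES7 and TUSC3 followed. SFN, the cell-cycle adaptor 14-3-3 sigma, measured 452, 417 and 431 CPM in dKO-19 with vehicle and 665 to 849 CPM in the other 3 groups (difference 1.05). HES7, a bHLH repressor of the Notch pathway, measured 45.6 to 50.5 CPM in dKO-19 with vehicle and 91.5 to 115 CPM elsewhere (difference 1.09). TUSC3, a subunit of the oligosaccharyltransferase, differed in shape, since it was highest in dKO-19 with SNX631 (45.1 to 45.7 CPM), lower in dKO-19 with vehicle (13.3 to 15.2 CPM) and lowest in dKO-19M (8.29 to 9.54 CPM in 6 libraries). Its line difference was thus larger under SNX631 (-2.38) than under vehicle (-0.69).

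Side by side, the effect of SNX631 within dKO-19 was -2.10 for NKILA, 2.13 for TMPRSS2, -1.98 for VEGFC, 0.91 for SFN and 0.93 for HES7, and within dKO-19M it was 0.12, 0.11, -0.23, -0.14 and -0.16. For ABCG2 it was 0.11 and 0.30, for CPLX2 -0.29 and -0.06, for KLF4 0.05 and -0.25 and for SERPINE2 -0.85 and -0.56. PSCA was intermediate, with an effect of -1.12 for the active line and -0.18 for the kinase-dead line. These effects share libraries with the line comparison and are given as values only. In the first 5 genes the inhibitor brought dKO-19 toward or past the dKO-19M level. Of these, VEGFC still differed between the lines under SNX631 (-1.86), and NKILA, TMPRSS2, SFN and HES7 had been chosen for their difference between treatments. In ABCG2, CPLX2, KLF4 and SERPINE2 the line difference was called at either treatment. In dKO-8, which shares no library with the comparison, SNX631 changed NKILA by -1.01, TMPRSS2 by 1.30, VEGFC by -1.30, SFN by 0.64 and HES7 by 0.71.

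**Figure D4:**
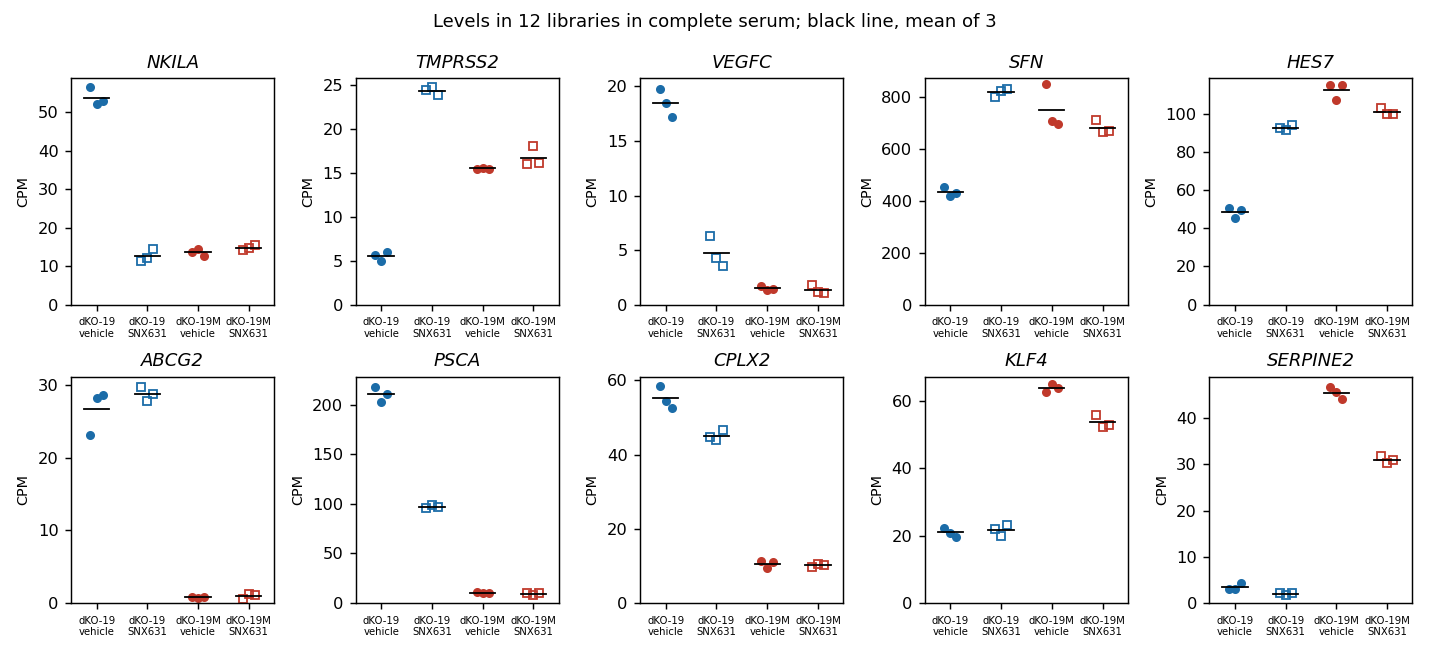
Levels in CPM (linear axes from 0) of 10 genes in the 12 FBS libraries of dKO-19 (blue) and dKO-19M (red), with vehicle as filled circles and SNX631 as open squares. Each point is 1 library and the black line the mean of 3. In NKILA only dKO-19 with vehicle is high, at 52 to 56.5 CPM, and in SERPINE2 both dKO-19M groups are high, at 30.3 to 46.7 CPM.

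CDK8 allowed the same question for the other kinase, in 6 vehicle libraries of dKO-8M and dKO-8. The amount of kinase transcript was not matched in this pair either. CDK8 averaged 68.7 CPM with the active kinase and 123 CPM with the kinase-dead one, a called rise of 0.84. CDK19 had moved the opposite way in its own pair. What this contributes to differences between the pairs was not tested. In the CDK8 pair 1406 genes (7.03%) were called, 591 higher and 815 lower in dKO-8M. Of the 1520 CDK19 calls, 356 were called in the same direction (23.4% of them and 25.3% of the CDK8 calls) and 120 in opposite directions, and 65.2% had the same sign. Across genes r was 0.17. The difference between the pairs was called for 1680 genes (8.4%), 712 of them among the 1520. A set of 195 genes, 82 higher and 113 lower, was called the same way in the CDK19 pair under vehicle, the CDK19 pair under SNX631 and the CDK8 pair. It includes FAM110B (2.25 in the CDK8 pair), ARSJ (2.17), VGF (-1.47), CPLX2 (-1.04), SEMA4A (-0.96) and PSCA (-1.30).

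Other leading genes differed between the pairs. CAPN2, a calpain protease, measured 32.8, 33.8 and 31.8 CPM in dKO-19 and 65, 70.5 and 68.6 CPM in dKO-19M (1.05), but 146 to 148 CPM in dKO-8 and 16.2 to 16.4 CPM in dKO-8M (-3.18), a difference of 4.23 between the pairs. The actin-binding protein gene TAGLN2 (0.79 and -1.51), the proteoglycan gene SPOCK1 (1.76 and -0.85) and KLF4 (1.61 and -0.71) were likewise higher with kinase-dead CDK19 and lower with kinase-dead CDK8. STEAP2 went the other way (-1.29 and 0.95), as did KLK4 (-3.21 and 1.54). KLK3 (-2.25) and KLK2 (-1.54) were called lower in the CDK8 pair too, and KLK1 (-0.07) and KLK15 (-0.05) were not called there. ABCG2 differed by 0.38 and SERPINE2 by -1.60 in the CDK8 pair. TMPRSS2 differed by 1.05, HES7 by 1.45, SFN by 0.86 and NKILA by -0.81, each in the direction seen in the CDK19 pair. ATF4 stress response genes were called lower in 22 of 38 in the CDK8 pair with a median of -0.66, beside 1 higher and 1 lower and a median of -0.09 in the CDK19 pair, and the difference between the pairs was called for 14 of them.

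Levels in the other FBS vehicle lines set the pair in context. For 341 of the 775 lower genes (44%) only the dKO-19M mean lay outside the range of the means of Rv1-WT, Rv1-Luc, dKO-8 and dKO-8M, and for 135 (17.4%) only the dKO-19 mean did. For the 745 higher genes these were 239 (32.1%) and 181 (24.3%), and over all genes tested 18.3% and 13.8%. Both means lay inside that range for 186 lower (24%) and 212 higher genes (28.5%) and both outside for 113 in each direction, so for these the other lines do not single out 1 line of the pair. SERPINE2 was 1.26 to 7.39 CPM in the 4 other lines, near the 3.43 CPM of dKO-19, so dKO-19M was the line apart. ABCG2 was 1.57 to 15.8 CPM in them, and here dKO-19 at 26.7 CPM lay above and dKO-19M at 0.769 CPM below. VDAC2 was 158 to 184 CPM in them, with dKO-19M inside at 182 CPM and dKO-19 above at 451 CPM.

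Whole chromosomes differed slightly in their median. GENCODE 29 placed 19346 of the tested genes (96.7%). The median log2 fold change was -0.19 on chromosome 8, -0.17 on chromosome 18, -0.15 on chromosome 22 and 0.12 on chromosome 14, beside 0.0046 over all genes. On chromosome 8, 72.4% of 655 genes were below 0, beside 48.8% of all genes tested. There 40 (6.11%) were called lower and 17 (2.6%) higher, PSCA being among the lower and FAM110B among the higher. Over all genes these shares were 3.87% and 3.72%. Chromosome 22 had 28 lower (5.26%) and 9 higher (1.69%) of 532, and chromosome 18 had 21 (6.98%) and 10 (3.32%) of 301. Chromosome 14 had 10 lower (1.58%) and 25 higher (3.95%) of 633. Without replicate 1 the medians were -0.19, -0.16, -0.16 and 0.11 on chromosomes 8, 18, 22 and 14, and in the SNX631 libraries -0.17, -0.13, -0.17 and 0.11. In the CDK8 pair they were 0, 0.00, 0.01 and 0.19. DNA was not measured, and copy number was not tested.

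**Figure D5:**
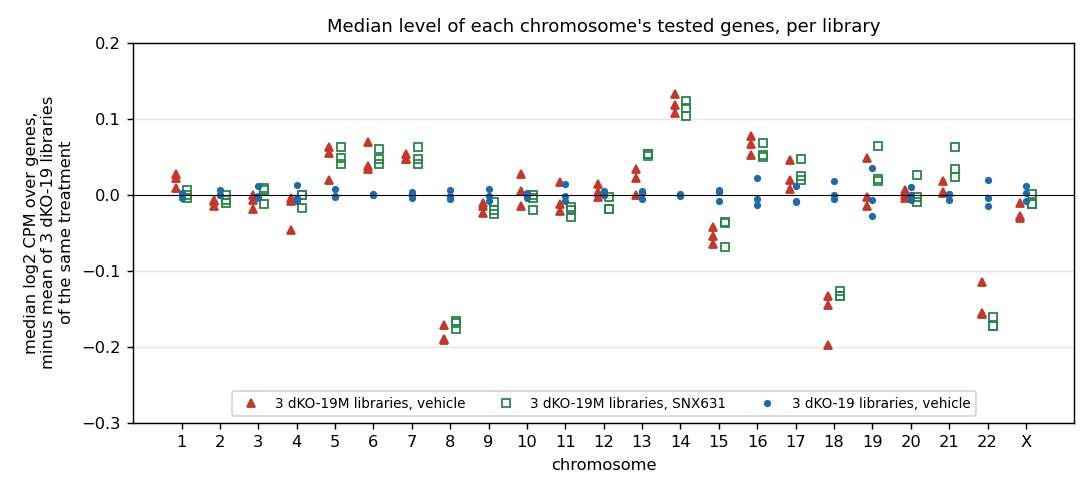
Median log2 CPM of each chromosome's tested genes in each dKO-19M library, minus the mean of the 3 dKO-19 libraries of the same treatment, for vehicle (red triangles) and SNX631 (green squares), with each dKO-19 vehicle library against its own group mean (blue points). On chromosomes 8, 18 and 22 all 6 dKO-19M libraries lie below 0 and on chromosome 14 all 6 lie above it.

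Among genes of at least 5 CPM, the 3 with the largest change that lost their call without replicate 1 of dKO-19M were IGFBP1, GREB1 and FAM169A. IGFBP1, a binding protein of insulin-like growth factors, measured 4.66, 4.37 and 4.54 CPM in dKO-19 and 10.2, 8.92 and 8.04 CPM in dKO-19M (1.00, and 0.90 without replicate 1). GREB1, a coactivator of steroid receptors, measured 6.83, 6.27 and 6.33 CPM against 2.93, 4.62 and 4.13 CPM (-0.74, and -0.57 without it). FAM169A measured 8.1, 7.24 and 8.82 CPM against 3.75, 5.96 and 4.91 CPM (-0.73, and -0.58 without it). In each of them the groups did not overlap, and the value without that replicate failed either the p or the fold limit.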

How the data were processed

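Total RNA of the cells was sequenced with a directional library kit. The deposited table, used as the authors made it, holds estimated counts per gene (whole numbers in 81.6% of nonzero values). Per the submitters' processing notes the tools were FastQC, cutadapt 2.8, STAR 2.7.2b and featureCounts of Subread 2.0.3, with the builds GRCh38.p13 and GRCm39. The annotation release and the strand setting of the counting are not given in the sources used here. Counts were rounded and fitted with a mean per group over 48 libraries in 16 groups (32 residual degrees of freedom) by edgeR 4.0.16 in R 4.3.3, with limma 3.58.1, TMM scaling, filterByExpr (minimum count 10, minimum total 15), robust glmQLFit and two-sided glmQLFTest, and Benjamini-Hochberg adjustment over all 20009 genes. The biological coefficient of variation was 4.2%. DESeq2 1.42.0 served as an alternative. The script was tested on simulated counts. Positions came from GENCODE 29 and promoters from RefSeq.

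Each line's library totals are in the report, and a count floor of 3 covers counting error only. Named genes were the kinase module, the 10 largest and 5 lowest-p changes in each direction that were called with and without dKO-19M replicate 1, averaged at least 5 CPM and had fractional counts in under 25% of libraries, up to 3 called members of each gene list per direction, 3 genes whose call was lost without that replicate, and the 5 genes with the lowest p for each of the 2 differences between line effects. The comparison, lists and rules were chosen with earlier results of these data known. Mitochondrially encoded transcripts were not used here, and some genes that these rules name are not reported here.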

Additional observations from a re-analysis of the deposited data

Results flagged for a closer look

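The line effect of dKO-19M over dKO-19 differed between vehicle and SNX631, by the test of the difference itself, for 415 genes. Of the genes with the largest falls, the difference in log2 fold change (vehicle minus SNX631) was -0.94 for PSCA, -1.75 for VEGFC and -1.66 for STXBP6, which fell further under vehicle, and 1.27 for CBLN2, which fell further under SNX631. Of the rises with the largest change or lowest p, it was 1.41 for CYP2C8, 1.16 for VIL1, 1.57 for MYOF, 1.23 for APOD, 1.14 for GLYATL1, 0.66 for FAM110B and 1.06 for ARSJ, each of which rose more under vehicle. It was -2.22 for NKILA, 2.03 for TMPRSS2, 1.05 for SFN, 1.09 for HES7 and 1.69 for TUSC3, and these were chosen for this difference.

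The CDK19 pair and the CDK8 pair differed, again by the test of the difference, for 1680 genes. Of the genes that fell in dKO-19M, the difference between the pairs was -5.49 for ABCG2, -3.05 for PSCA, -3.29 for SEMA4A, -3.75 for VEGFC, -3.33 for ACKR3, -2.54 for STXBP6, -2.46 for GLI3, -2.75 for HBEGF, -5.01 for CBLN2, -1.35 for CPLX2, -0.80 for VGF, -1.36 for VDAC2, -1.17 for NKILA and -1.16 for TUSC3. CBLN2 rose in the CDK8 pair (2.60). Of the rises with the largest change, it was 5.31 for SERPINE2, 1.99 for CYP2C8, 3.15 for CACNA1H, 0.80 for VIL1, 1.91 for MYOF, 1.71 for APOD and 2.82 for GLYATL1. It was -3.31 for PAX1, which rose more in the CDK8 pair (5.97). The difference was 4.23 for CAPN2, 2.31 for TAGLN2, 2.61 for SPOCK1, 2.32 for KLF4 and -2.24 for STEAP2, which were chosen for it.

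The table also counts a blasticidin resistance transgene, which entered no comparison. It had at least 497 counts in every dKO-19M vehicle library and 503 to 559 counts in the dKO-19 vehicle libraries, beside 0 in Rv1-WT. The other FBS vehicle libraries held it as well, with 1914 to 2113 counts in Rv1-Luc, 436 to 646 in dKO-8 and 329 to 462 in dKO-8M.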

How the results depend on the processing

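For the vehicle comparison, raising the level limit to a mean of 5 CPM left 601 genes called, testing against a 1.5-fold change with glmTreat called 631, and an adjusted p under 0.05 with no fold limit called 6660, in place of 1520. The other settings called 1220 (without genes of fractional counts) to 1556 (library size only, no TMM), with 1444 by DESeq2, 1446 after thinning all libraries to the smallest of the 6 totals and 1234 in a fit of only the 6 libraries. Leaving out each library in turn gave 1385 to 1460 genes under vehicle, 1271 to 1317 under SNX631, 355 to 414 for the difference of vehicle and SNX631, 1239 to 1309 in the CDK8 pair and 1561 to 1697 for the difference between the pairs. A group then held 2 libraries, with the spread estimated over all groups.

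Samples share replicate numbers, but the numbers did not pair them: deviations of same-numbered dKO-19M and dKO-19 vehicle libraries had r = 0.22, 0.27 and -0.07, and not every library correlated best with its own number. With the replicate block 1537 genes were called under vehicle, 1510 of them shared with the 1520, and 1425 under SNX631, 414 and 1674 for the 2 differences and 1393 in the CDK8 pair.

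No named gene that was called changed direction. In no comparison was a called gene called in the opposite direction when a library was left out. The sign of named genes that were not called was not held to this, and it turned for MED13 and MED12 without dKO-19M replicate 1. Named genes under a limit were CDK19, HOXB13, HLA-B, AXIN2, KRT7, TP53I3, KIT, IGFBP1, GREB1 and FAM169A without dKO-19M replicate 1, CDK19, AXIN2, RNF43 and HOXB4 with library size only (CDK19 -0.57), 7 genes in the fit of 6 libraries and KIT with the block and with DESeq2. List medians moved by more than the replicate spread in 24 of the tested lists with library size only, which shifted the median of all genes from 0.0046 to 0.05, and in 11 without replicate 1. Counts were lowest, and depth a limit, in the 317 called genes under 1 CPM.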
